A study of Mus musculus with 12 samples.

Results

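Collagens are the triple-helical proteins of the extracellular matrix, and the collagen genes described here are all genes in the count tables whose symbol is Col followed by a type number, the letter a and a chain number. This rule picked 44 of the 24421 genes. Of these, 23 reached 1 CPM (1 count per 1e+06 counts of a library) in at least 3 libraries and were tested, while 21 stayed below that level. RNA sequencing was done on B16F10 cells, a transplantable mouse melanoma line, so all groups came from 1 established line in culture. Each of 4 groups had 3 replicates: control cells with dimethyl sulfoxide, DAC single treatment (5-aza-2'-deoxycytidine, an inhibitor of DNA methyltransferases, 25 nM for 72 h), SFN single treatment (sulforaphane, an isothiocyanate, for the last 48 h of 72 h) and the combination of both drugs on the same schedule (DAC + SFN). The labels give SFN as 5 nM in the single treatment and as 5 µM in the combination, while the study's methods describe a single SFN dose for both. Whether the comparison of DAC + SFN with SFN, the main effects and the interaction also involve a difference in SFN dose is therefore not settled by these sources. Library totals ranged from 15880957 to 27291436 counts, with a median of 21949304.

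Each collagen molecule is wound from 3 alpha chains, either copies of 1 gene product or chains of different genes, and secreted. Fibrillar collagens build the banded fibres of dermis, bone and cartilage, type IV chains form the sheet of basement membranes, and fibril-associated collagens coat the fibres. Basement membrane and dermal collagen are the barriers that melanoma cells meet when they invade, and tumour cells also make collagen of their own.

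Between 0.0291% and 0.0869% of all counts of a library fell on collagen genes. Per kilobase of exon, the highest mean level in control was that of Col1a1, the alpha 1 chain of type I collagen, at 20.3 ± 23.9 CPM per kilobase (SD, n = 3). The next 4 were Col5a1 (9.96 ± 5.28), a chain of type V collagen of fibrils, Col16a1 (6.04 ± 0.974), a fibril-associated collagen, and the basement membrane chains Col4a5 (5.58 ± 0.541) and Col4a1 (5.48 ± 2.06). Of the 22 pairs of neighbours in this order, only Col5a3 and Col15a1 had control libraries that did not overlap. Most neighbouring ranks thus lay within the spread of replicates when libraries were not paired by replicate number. Within all 3 replicate numbers, Col5a1 exceeded Col16a1 and Col16a1 exceeded Col4a5. The order of Col1a1 and Col5a1, and that of Col4a5 and Col4a1, changed between replicates. With the longest transcript of each gene in place of all its exons, the same 5 genes led and Col4a1 and Col4a5 changed places.

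**Figure D1:**
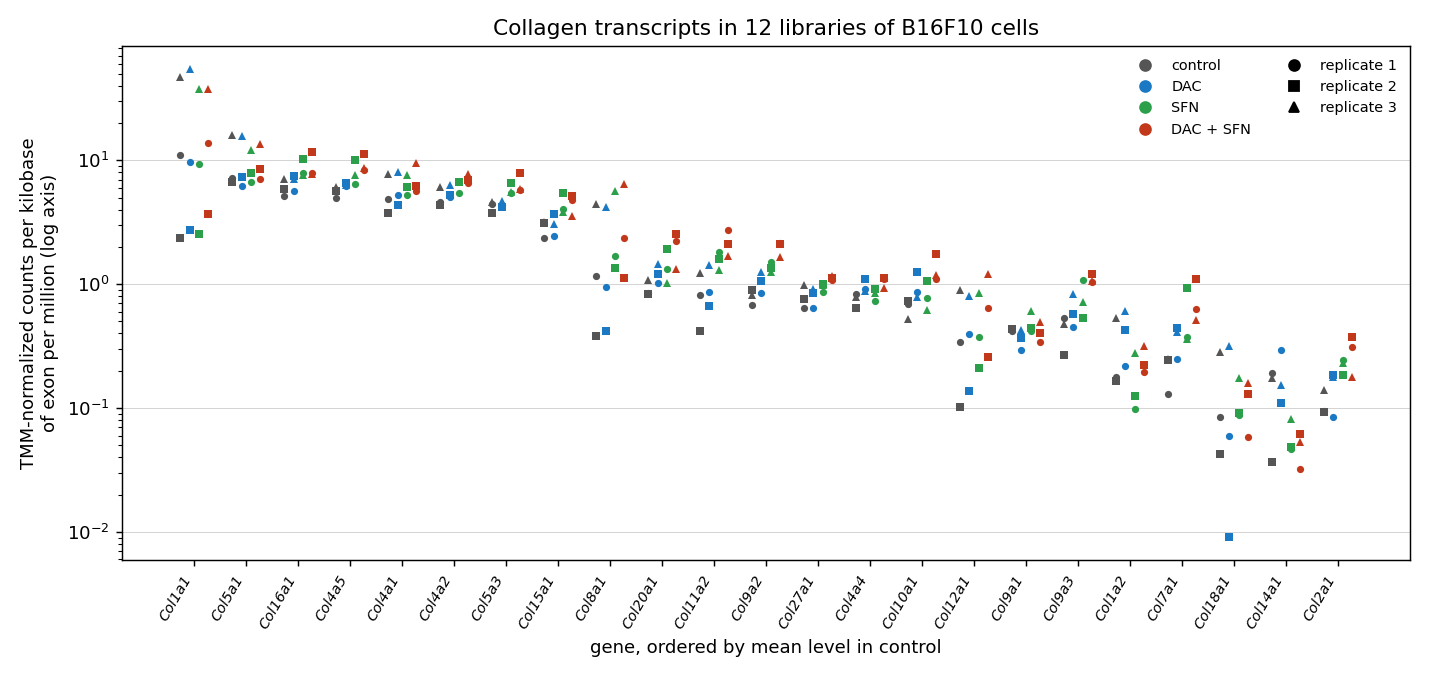
The level of each of the 23 tested collagen genes is plotted per library (log vertical axis, TMM-normalized CPM per kilobase of exon), with colour for the group, symbol shape for the replicate and genes ordered by mean level in control. Replicate 3 libraries (triangles) stand far above replicate 2 libraries (squares) for Col1a1, Col8a1 and Col12a1 in every group.

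Several collagens that skin fibroblasts make in quantity were near the limit of detection. Col3a1, the chain of type III collagen, had between 3 and 15 counts per library, and Col5a2, a partner chain of type V, had 0 to 15. Type VI collagen, which forms beaded filaments, was near the floor in all its genes, with 2 to 11 counts for Col6a1, 0 or 1 for Col6a2, 1 to 5 for Col6a3 and 0 to 2 for Col6a6. Col6a4, Col6a5, Col13a1 and Col22a1 had 0 counts in all 12 libraries, which allows up to 0.189 CPM in the shallowest library and 0.11 CPM in the deepest (3 counts, counting error only).

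The transmembrane collagens Col17a1, Col23a1 and Col25a1 had at most 16, 11 and 6 counts. The remaining genes below the filter were Col4a3 (0 to 13 counts), Col4a6 (0 to 2), Col8a2 (0 to 8), Col11a1 (1 to 14), Col19a1 (0 to 9), Col24a1 (0 to 6), Col26a1 (0 to 2) and Col28a1 (0 to 6). In a fit without the filter, Col4a3 was the only one of these 21 genes past the adjusted threshold in the comparisons of treatments with control, for DAC + SFN, on 1, 0 and 0 counts in control and 1, 13 and 7 counts with the combination.

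Each treatment was compared to control in 1 edgeR model of all 12 libraries with the replicate number as a block, and a gene was called at an adjusted p under 0.05. The 3 comparisons share the same control libraries. In bulk RNA, fewer cells of a type and less RNA per cell cannot be told apart. With DAC alone, 0 of 23 collagen genes were called (4 at an unadjusted p under 0.05, 0 by DESeq2). Of all 11638 tested genes, 0.18% rose, 0% fell and 0.0344% rose more than 2-fold, and 1170 had an unadjusted p under 0.05. SFN alone raised 9 collagen genes and lowered 0, where 8.27% of all genes rose and 5.65% fell. With the combination treatment 17 rose and 0 fell, where 17% of all genes rose and 14.7% fell. More than 2-fold increases were found for 1 collagen gene with SFN (1.08% of all genes) and for 7 with DAC + SFN (2.33% of all genes).

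The median log2 fold change of the 23 genes was 0.16 with DAC, 0.345 with SFN and 0.62 with DAC + SFN, and that of all tested genes was 0.0049, 0.004 and 0.0078. All 3 treated libraries stood above all 3 control libraries for 3 collagen genes with DAC (4.09% of all genes), for 8 with SFN (10.9%) and for 14 with DAC + SFN (15.1%), and for 0 genes did all 3 stand below. By class, DAC + SFN raised 4 of 7 tested fibrillar genes, 4 of 4 type IV genes, the type VII gene, 2 of 2 short-chain genes, 5 of 7 fibril-associated genes and 1 of 2 multiplexin genes.

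**Figure D2:**
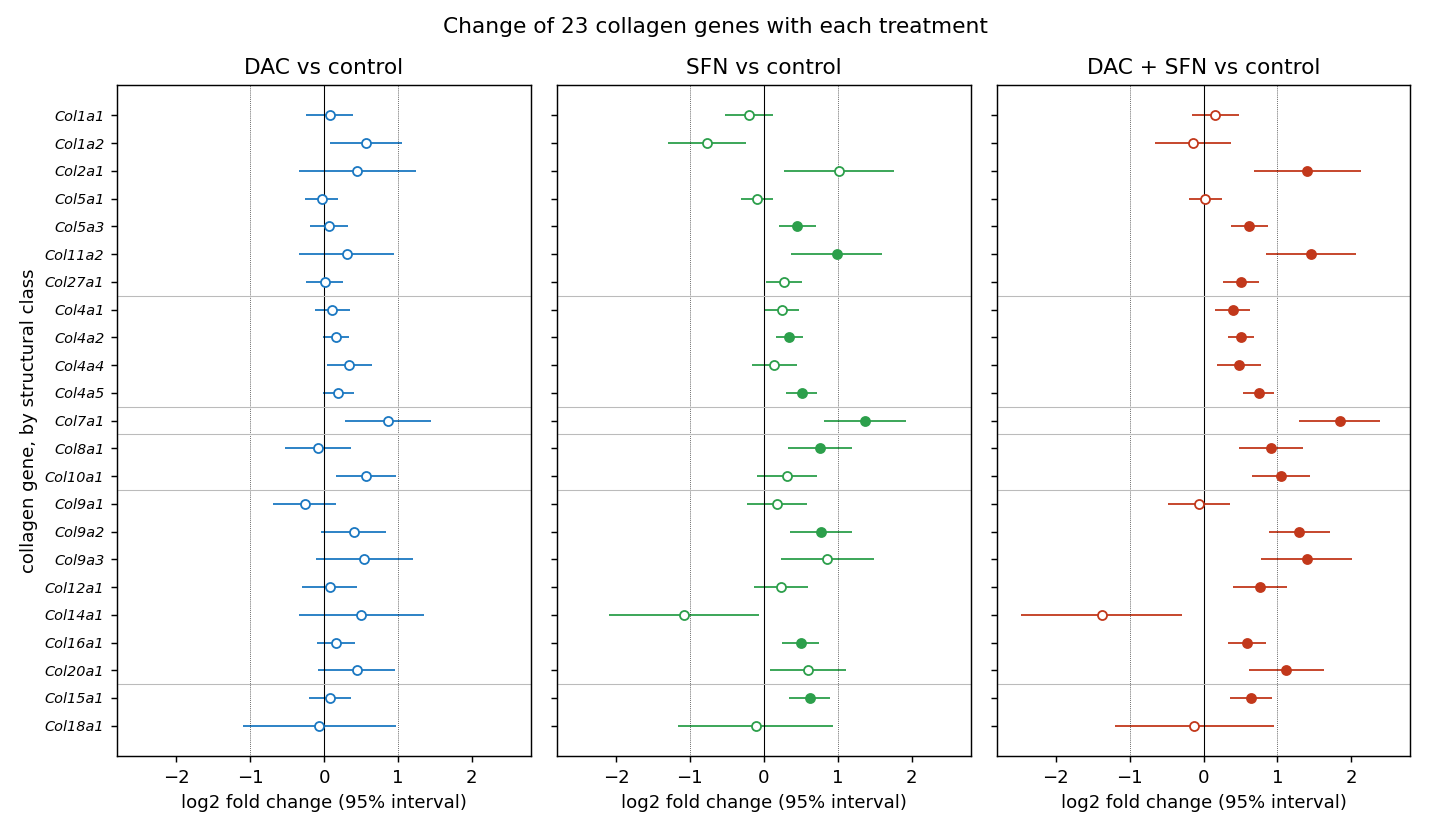
Log2 fold changes of the 23 tested collagen genes against control are plotted with their 95% intervals in 3 panels, for DAC, SFN and DAC + SFN, and grouped by structural class. Filled points passed an adjusted p under 0.05: 0 with DAC, 9 with SFN and 17 with DAC + SFN, all of them to the right of 0.

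The number of collagen genes called with SFN depended on single libraries. It fell from 9 to 5, 4, 5 and 3 without control replicate 1, control replicate 2, SFN replicate 1 and SFN replicate 2, and to 0 without the replicate block (11 at an unadjusted p under 0.05). Col4a5 and Col7a1 kept their call with SFN whichever single library was left out. For DAC + SFN the count stayed between 16 and 18 when any 1 library was left out, where only Col4a1 and Col4a4 lost their call, and it was 10 without the replicate block. Without all libraries of replicate 1, 2 or 3, it was 7, 10 and 18. The share of all genes called in these fits is not given here. A change in calls over all genes can therefore not be told from one in collagen genes.

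In what follows, values per library are TMM-normalized CPM in the order of replicates 1, 2 and 3. The largest increase was that of Col7a1, which encodes the single chain of type VII collagen, the anchoring fibril that ties the epidermal basement membrane to the dermis. Its gene spans 108953586 to 108984875 on the plus strand of chromosome 9 (mm10, GENCODE M21). Col7a1 was at 1.33, 2.5 and 2.57 CPM in control cells, 2.57, 4.59 and 4.2 after DAC, 3.86, 9.56 and 3.68 after SFN and 6.51, 11.3 and 5.28 after DAC + SFN. Every DAC + SFN and every SFN library stood above every control library, while the lowest DAC library was not above the highest control library. Compared to control, Col7a1 rose 3.58-fold (log2 fold change 1.84, SE 0.255, adjusted p = 0.000116) with the combination and 2.59-fold (log2 fold change 1.37, SE 0.259, adjusted p = 0.00272) with SFN. With DAC the estimate was 0.87 on the log2 scale (SE 0.271, adjusted p = 0.254), and all 3 replicates had a positive difference (0.90, 0.86 and 0.69). In a fit of the DAC and control libraries alone the adjusted p was 0.0126, and in a fit without the filter 0.0354.

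Col7a1 and Col10a1 are shown with the sequence upstream of their start sites because they were the 2 collagen genes called for the main effect of DAC, and Col11a2 because it had the second largest increase with DAC + SFN. The Col11a2 transcript start in RefSeq lies upstream of the gene start in GENCODE M21 (34039437). Sequences are from the RefSeq promoter table (GRCm38.p6), 5′ to 3′, and end at the base before the RefSeq transcript start. All are on the plus strand, at chr9:108953336-108953585 for Col7a1, chr10:34389731-34389980 for Col10a1 and chr17:34038888-34039137 for Col11a2. Capitals mark the only match among them to TGACNNNGC, the core of the antioxidant response element bound by NRF2, which was searched on both strands.
Col7a1: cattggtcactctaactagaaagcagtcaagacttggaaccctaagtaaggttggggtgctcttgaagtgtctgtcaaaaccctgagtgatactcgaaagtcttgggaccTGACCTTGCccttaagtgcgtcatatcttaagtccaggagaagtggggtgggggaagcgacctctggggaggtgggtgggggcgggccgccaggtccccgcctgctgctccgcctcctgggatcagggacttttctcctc
Col10a1: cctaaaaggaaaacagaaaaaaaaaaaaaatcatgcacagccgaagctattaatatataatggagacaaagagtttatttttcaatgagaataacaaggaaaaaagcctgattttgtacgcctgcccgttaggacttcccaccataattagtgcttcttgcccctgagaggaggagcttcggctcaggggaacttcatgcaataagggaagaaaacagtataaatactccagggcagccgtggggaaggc
Col11a2: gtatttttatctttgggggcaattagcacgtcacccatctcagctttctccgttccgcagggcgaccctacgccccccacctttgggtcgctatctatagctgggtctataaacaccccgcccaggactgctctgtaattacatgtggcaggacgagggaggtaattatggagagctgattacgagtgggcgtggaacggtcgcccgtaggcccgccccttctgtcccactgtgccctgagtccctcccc

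The core in the Col7a1 sequence, TGACCTTGC, has 131 bases between it and the transcript start. Windows of 250 bases before to 50 after the start were at hand for 35 of the 44 collagen genes, in 38 windows, of which 7 (18.4%) held the core, against 12.4% of 32851 windows of all genes. Among collagen genes that passed the filter it was in 3 of 20 windows (15.0%), those of Col4a2, Col7a1 and Col9a2. The AP-1 motif TGANTCA, also searched on both strands and able to overlap the core, was in 1 collagen window (2.6%) against 7.8% of all windows. The median number of CpG dinucleotides, the bases that DNA methylation marks, was 12.5 per window in collagen genes that passed the filter, 7.5 in those below it and 7 in all windows. The share of windows with an observed to expected CpG ratio above 0.6 stood in another order, at 30.0% in collagen genes that passed the filter, 27.8% in those below it and 35.8% in all windows.

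Type IV collagen forms the network of basement membranes, and its 4 tested chains rose together with DAC + SFN. Col4a5 was at 33.5, 38.2 and 40.7 CPM in control cells, 41.5, 44 and 42.1 after DAC, 43.5, 67.6 and 50.8 after SFN and 56.4, 75.3 and 58.1 after DAC + SFN. Col4a5, a chain of the minor type IV network, rose 1.68-fold (log2 fold change 0.75, SE 0.0972, adjusted p = 7.23e-05), with the smallest adjusted p of the collagen genes in this comparison, and 1.43-fold (log2 fold change 0.51, SE 0.0973, adjusted p = 0.00278) with SFN. In both comparisons the treated libraries were all above control.

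Col4a1 was at 36.5, 28.3 and 58 CPM in control cells, 39.2, 32.4 and 59.7 after DAC, 38.9, 45.6 and 56.9 after SFN and 42.2, 46 and 71.1 after DAC + SFN. Col4a2 was at 30.3, 28.6 and 40.3 CPM in control cells, 33.7, 34.8 and 41.9 after DAC, 36.3, 44.6 and 44.2 after SFN and 43.1, 45.9 and 51.2 after DAC + SFN. These chains of the main type IV network have overlapping first exons on opposite strands (22 shared bases), and the ratio of their levels per length stayed between 0.825 and 1.27 over the 12 libraries. With DAC + SFN, Col4a2 rose 1.42-fold (log2 fold change 0.51, SE 0.084, adjusted p = 0.000467) and Col4a1 rose 1.31-fold (log2 fold change 0.39, SE 0.109, adjusted p = 0.0137). SFN alone raised Col4a2 (log2 fold change 0.34, adjusted p = 0.0135), and for Col4a1 the estimate was 0.25 on the log2 scale (SE 0.11, adjusted p = 0.15). The call of Col4a1 was lost without control replicate 2 or without DAC + SFN replicate 2.

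Col4a4 was at 8.88, 6.8 and 8.37 CPM in control cells, 9.65, 11.7 and 9.33 after DAC, 7.81, 9.71 and 9 after SFN and 11.8, 12 and 9.85 after DAC + SFN. Col4a4, which pairs with Col4a3 and Col4a5 in the kidney basement membrane, rose 1.4-fold (log2 fold change 0.48, SE 0.141, adjusted p = 0.0176) with the combination. The 3 DAC + SFN libraries lay above control, and so did the 3 DAC libraries, where the estimate was 0.34 on the log2 scale (SE 0.142, adjusted p = 0.422). Its call was lost without control replicate 2 or DAC + SFN replicates 1 or 2. Col4a4 and Col4a3 start on opposite strands of chromosome 1 with 71 bases between them, yet Col4a4 had 6.8 to 12 CPM and Col4a3 at most 13 counts. The spacer (chr1:82586850-82586920, GRCm38.p6) is shown for this contrast, on the minus strand in the direction of Col4a4, and holds neither motif:
spacer: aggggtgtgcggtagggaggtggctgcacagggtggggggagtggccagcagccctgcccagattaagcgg

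Of the tested fibrillar collagens, Col2a1, Col5a3, Col11a2 and Col27a1 were called with DAC + SFN, while Col1a1, Col1a2 and Col5a1 were not. Col11a2 was at 5.66, 2.88 and 8.47 CPM in control cells, 5.96, 4.59 and 9.81 after DAC, 12.4, 11 and 8.95 after SFN and 19, 14.5 and 11.5 after DAC + SFN. Col11a2 encodes a chain of type XI collagen, which nucleates cartilage fibrils. It rose 2.74-fold (log2 fold change 1.46, SE 0.285, adjusted p = 0.00156) with DAC + SFN and 1.99-fold (log2 fold change 0.99, SE 0.289, adjusted p = 0.0334) with SFN, with all treated libraries above control in both. The difference with SFN in replicate 3 was 0.08 on the log2 scale against 1.12 and 1.90 in the others, and the call with SFN was lost in DESeq2 and without control replicates 1 or 2 or SFN replicates 1 or 2.

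Col2a1 was at 0.874, 0.861 and 1.28 CPM in control cells, 0.787, 1.72 and 1.65 after DAC, 2.26, 1.69 and 2.13 after SFN and 2.87, 3.45 and 1.63 after DAC + SFN. Col2a1, the chain of type II collagen of cartilage, was among the 3 lowest of the 23 in control per length, by all exons or by the longest transcript, and rose 2.65-fold (log2 fold change 1.40, SE 0.34, adjusted p = 0.00617) with the combination. With SFN all libraries were above control and the estimate was 1.01 on the log2 scale (SE 0.347, adjusted p = 0.0654). Col27a1 was at 8.42, 9.85 and 12.7 CPM in control cells, 8.36, 11 and 11.8 after DAC, 11.2, 13 and 12.9 after SFN and 14, 14.5 and 15.1 after DAC + SFN. Col27a1, another fibrillar chain of cartilage, rose 1.42-fold (log2 fold change 0.51, SE 0.114, adjusted p = 0.00394) with DAC + SFN, and its combination libraries lay above control and within a narrow range.

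Col5a3 was at 30.0, 25.6 and 31.2 CPM in control cells, 29.8, 28.5 and 32.2 after DAC, 37.1, 44.5 and 37.5 after SFN and 39.5, 54.2 and 40.3 after DAC + SFN. Col5a1 was at 60.6, 56.9 and 136 CPM in control cells, 52.9, 62.7 and 133 after DAC, 57.3, 67.1 and 103 after SFN and 59.9, 72.9 and 116 after DAC + SFN. Both are chains of type V collagen, which controls fibril width, of which Col5a3 rose 1.53-fold (log2 fold change 0.62, SE 0.117, adjusted p = 0.00121) with DAC + SFN and 1.37-fold (log2 fold change 0.45, SE 0.117, adjusted p = 0.0184) with SFN, with all treated libraries above control. Col5a1 had a difference of 0.02 on the log2 scale (SE 0.103, adjusted p = 0.882) with DAC + SFN, with a 95% interval from -0.20 to 0.25. The difference between the 2 genes was not tested. The ratio of Col5a1 to Col5a3 per length ran from 1.62 to 3.5 in control and from 1.08 to 2.3 with DAC + SFN.

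Col1a1 was at 72.1, 15.6 and 312 CPM in control cells, 63.5, 18.1 and 356 after DAC, 61.5, 16.7 and 245 after SFN and 90.3, 24.1 and 246 after DAC + SFN. Col1a2 was at 2.21, 2.07 and 6.57 CPM in control cells, 2.73, 5.3 and 7.57 after DAC, 1.22, 1.54 and 3.43 after SFN and 2.41, 2.78 and 3.92 after DAC + SFN. The levels of Col1a1 fell apart by replicate number in every group, with 245 to 356 CPM in replicate 3 libraries and 15.6 to 24.1 CPM in replicate 2 libraries. Compared to control, Col1a1 had a difference of -0.20 on the log2 scale (SE 0.15, adjusted p = 0.417) with SFN and 0.16 on the log2 scale (SE 0.15, adjusted p = 0.446) with DAC + SFN. Without DAC + SFN replicate 3, the latter became 0.43 (adjusted p = 0.0037).

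Col1a2, the partner chain of type I collagen, was 1 of 2 collagen genes that fell for the main effect of SFN (log2 fold change -0.74, adjusted p = 0.00455). With SFN alone it missed the threshold (log2 fold change -0.77, adjusted p = 0.0525) and passed it under 7 alternatives, among them DESeq2 (adjusted p = 0.0434) and leaving out control replicate 2 (0.0221). The type I molecule normally takes 2 alpha 1 chains and 1 alpha 2 chain, while the ratio of Col1a1 to Col1a2 per length ranged from 6.48 to 135 over the libraries, and from 3.09 to 64.4 with lengths of the longest transcripts.

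Collagens VIII and X are short chains that form open networks. Col10a1 was at 2.16, 2.28 and 1.64 CPM in control cells, 2.69, 3.96 and 2.47 after DAC, 2.4, 3.31 and 1.92 after SFN and 3.46, 5.51 and 3.74 after DAC + SFN. Col10a1, the collagen of hypertrophic cartilage, rose 2.07-fold (log2 fold change 1.05, SE 0.183, adjusted p = 0.000676) with DAC + SFN. The DAC libraries were all above control as well, with an estimate of 0.57 on the log2 scale (SE 0.19, adjusted p = 0.293). Col10a1 lies within Nt5dc1 on the opposite strand, which had 343 to 654 counts against 32 to 115 for Col10a1, and the library kit kept strand while the strand setting of the counting was not given in the sources used here.

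Col8a1 was at 9.2, 2.97 and 34.7 CPM in control cells, 7.41, 3.25 and 33.2 after DAC, 13.2, 10.5 and 44 after SFN and 18.4, 8.72 and 50.8 after DAC + SFN. Col8a1, a chain of vessel walls and of Descemet's membrane in the eye, rose 1.88-fold (log2 fold change 0.91, SE 0.202, adjusted p = 0.00363) with DAC + SFN and 1.7-fold (log2 fold change 0.76, SE 0.203, adjusted p = 0.0212) with SFN. The groups overlapped since replicate 3 was high throughout, and within each replicate number the DAC + SFN library exceeded its control (0.99, 1.53 and 0.55 on the log2 scale). The call with SFN was lost without control replicates 1 or 2 or SFN replicate 2.

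Of the fibril-associated collagens, the type IX genes encode chains that coat cartilage fibrils, and 2 of the 3 rose with DAC + SFN. Col9a2 was at 2.12, 2.8 and 2.52 CPM in control cells, 2.61, 3.25 and 3.9 after DAC, 4.66, 4.21 and 3.88 after SFN and 6.65, 6.51 and 5.09 after DAC + SFN. Col9a3 was at 2.07, 1.03 and 1.85 CPM in control cells, 1.74, 2.23 and 3.18 after DAC, 4.19, 2.07 and 2.78 after SFN and 4.01, 4.69 and 4.06 after DAC + SFN. Col9a2 rose 2.46-fold (log2 fold change 1.30, SE 0.194, adjusted p = 0.000213) with DAC + SFN and 1.71-fold (log2 fold change 0.78, SE 0.198, adjusted p = 0.0172) with SFN, with all treated libraries above control in both. Col9a3 rose 2.63-fold (log2 fold change 1.39, SE 0.288, adjusted p = 0.00224) with DAC + SFN, again with all treated libraries above control, and with SFN it had a difference of 0.86 on the log2 scale (SE 0.295, adjusted p = 0.0667).

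Col9a1, the remaining chain, ranged from 1.49 to 3.11 CPM over the 12 libraries and had a difference of -0.06 on the log2 scale (SE 0.197, adjusted p = 0.839) with the combination. The ratio of Col9a2 to Col9a1 per length was 1.64 to 2.09 in control and 3.31 to 6.29 with DAC + SFN, with no overlap. That of Col9a3 to Col9a1 was 0.619 to 1.29 and 2.12 to 3.05, also with no overlap.

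Col16a1 was at 34.9, 39.5 and 47.9 CPM in control cells, 38.5, 50.1 and 48 after DAC, 53, 68.9 and 51.4 after SFN and 53.4, 79.3 and 52.4 after DAC + SFN. Col12a1 was at 5.2, 1.55 and 13.8 CPM in control cells, 6.04, 2.11 and 12.2 after DAC, 5.74, 3.2 and 13 after SFN and 9.74, 3.93 and 18.3 after DAC + SFN. Col20a1 was at 4.37, 4.3 and 5.55 CPM in control cells, 5.3, 6.25 and 7.45 after DAC, 6.78, 9.82 and 5.23 after SFN and 11.4, 13.2 and 6.77 after DAC + SFN. All of these fibril-associated genes were higher in the DAC + SFN library than in the control library of the same replicate number, and for Col16a1 and Col20a1 the groups did not overlap. Col16a1 rose 1.5-fold (log2 fold change 0.58, SE 0.119, adjusted p = 0.00205) with the combination and 1.41-fold (log2 fold change 0.50, SE 0.119, adjusted p = 0.0122) with SFN. Col12a1, which binds type I fibrils, rose 1.7-fold (log2 fold change 0.76, SE 0.169, adjusted p = 0.0035), and Col20a1 rose 2.18-fold (log2 fold change 1.12, SE 0.236, adjusted p = 0.00256). With SFN alone Col20a1 had a difference of 0.60 on the log2 scale (SE 0.241, adjusted p = 0.113) and Col12a1 0.23 on the log2 scale (SE 0.173, adjusted p = 0.408).

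Col14a1 was at 1.33, 0.258 and 1.23 CPM in control cells, 2.07, 0.766 and 1.09 after DAC, 0.329, 0.339 and 0.572 after SFN and 0.228, 0.431 and 0.374 after DAC + SFN. Col14a1, a relative of Col12a1 that also binds type I fibrils, was lower for the main effect of SFN (log2 fold change -1.48, adjusted p = 0.00456). It had 5 to 50 counts per library and reached 1 CPM in 4 libraries, all of them control or DAC libraries, so it was tested only because of the groups where it was high. The call for the main effect of SFN was kept in a fit without the filter. Against control the estimates were -1.08 on the log2 scale (SE 0.476, adjusted p = 0.15) with SFN and -1.38 on the log2 scale (SE 0.509, adjusted p = 0.0517) with DAC + SFN, where the libraries of replicates 1 and 3 were below their controls and that of replicate 2 was above (-2.17, 0.58 and -1.51). Without control replicate 2 the DAC + SFN comparison had a log2 fold change of -1.74 (adjusted p = 0.0201).

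The multiplexins carry interrupted helices and sit in vascular and epithelial basement membranes. Col15a1 was at 15, 19.7 and 20.1 CPM in control cells, 15.4, 23.4 and 19.4 after DAC, 25.9, 34.5 and 24.2 after SFN and 30.4, 32.4 and 22.7 after DAC + SFN. Col15a1 rose 1.56-fold (log2 fold change 0.64, SE 0.131, adjusted p = 0.00203) with DAC + SFN and 1.54-fold (log2 fold change 0.62, SE 0.131, adjusted p = 0.00588) with SFN, and all treated libraries were above control. Col18a1 was at 0.598, 0.301 and 2 CPM in control cells, 0.414, 0.0638 and 2.21 after DAC, 0.612, 0.64 and 1.23 after SFN and 0.41, 0.91 and 1.12 after DAC + SFN. Col18a1, the source of endostatin, was near 1 CPM, was highest in control and DAC replicate 3, and had a difference of -0.13 on the log2 scale (SE 0.504, adjusted p = 0.875) with DAC + SFN.

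The next question was whether each drug added to the other. Against DAC alone, DAC + SFN raised 12 collagen genes and lowered 2, where 9.55% of all genes rose and 6.6% fell. The 12 were Col4a2, Col4a5, Col5a3, Col7a1, Col8a1, Col9a2, Col9a3, Col11a2, Col12a1, Col15a1, Col16a1 and Col27a1, led in size by Col11a2 (log2 fold change 1.15, adjusted p = 0.0129) and Col8a1 (log2 fold change 0.99, adjusted p = 0.00508), and the 2 that fell were Col14a1 (log2 fold change -1.88, adjusted p = 0.0163), which passed the filter through control and DAC libraries only, and Col1a2 (log2 fold change -0.71, adjusted p = 0.0493). The call of Col1a2 was lost in 12 of 16 alternatives, among them DESeq2, a fit of only the groups compared and leaving out any 1 of the 6 libraries, with adjusted p-values up to 0.47. That of Col14a1 was lost without DAC replicate 1, without DAC + SFN replicate 1 and without the replicate block. Of the 12 that rose, Col11a2 and Col16a1 lost their calls most often, in 8 of 16 alternatives. Col4a5 lost its call least often, in 1. The total of 14 became 5 without DAC replicate 1, 8 without DAC replicate 2, 4 without DAC + SFN replicate 1 and 0 without the replicate block (13 at an unadjusted p under 0.05).

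Against SFN alone, 1 collagen gene rose, Col10a1 (log2 fold change 0.74, adjusted p = 0.0491), and 0 fell, where 0.937% of all genes rose and 0.67% fell. In a fit of only these 2 groups 8 rose, namely Col10a1, Col1a1, Col4a5, Col7a1, Col9a2, Col11a2, Col12a1 and Col20a1. The share of all genes called in this fit is not given here, so the 8 cannot be read against a background. The call of Col10a1 in the model of all libraries was lost in DESeq2 and without the replicate block. It was also lost without any 1 of the 6 libraries compared. Its log2 fold change ran from 0.638 to 0.839 over the 16 alternatives. Without DAC + SFN replicate 3, 2 other collagen genes were called. Another 7 genes had an unadjusted p under 0.05 in this comparison, all with higher values in DAC + SFN: Col12a1, Col9a2, Col1a2, Col4a5, Col4a4, Col1a1 and Col20a1. Of all 11638 tested genes, 2072 had an unadjusted p under 0.05 here.

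For the main effect of SFN, the mean over cells with and without DAC, 16 collagen genes rose and 2 fell, where 16.1% of all genes rose and 13.5% fell. The genes that rose were the 9 raised by SFN against control and Col2a1 (log2 fold change 0.98, adjusted p = 0.00624), Col9a3, Col20a1, Col12a1, Col27a1, Col4a1 and Col10a1. The call of Col10a1 was lost in 14 of 21 alternatives and that of Col4a1 in 7. Each other call for this main effect was lost in at most 3. By the labels, the main effect of SFN averages 5 nM and 5 µM doses. That of DAC includes a comparison of 5 µM with 5 nM SFN. For the main effect of DAC 2 collagen genes rose and 0 fell, where 3.07% of all genes rose and 2.15% fell. These were Col7a1 (log2 fold change 0.67, adjusted p = 0.0402) and Col10a1 (log2 fold change 0.65, adjusted p = 0.0121). The number changed to 0 without SFN replicate 3, to 1 without control replicates 1 or 2, DAC replicate 3, SFN replicate 1 or DAC + SFN replicates 1 or 2, to 4 without SFN replicate 2, to 5 without control replicate 3 and to 8 without DAC + SFN replicate 3. Without the replicate block it was 0.

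The interaction asked whether the change with 1 drug depended on the other. For 0 of 23 collagen genes was it called (0 at an unadjusted p under 0.05, 0 by DESeq2), and 0% of all genes passed. The lowest p was that of Col12a1, with an interaction of 0.45 on the log2 scale and a 95% interval from -0.06 to 0.97 (adjusted p = 0.903). For Col7a1 the interaction was -0.40 with an interval from -1.15 to 0.35, so departures of this size from additivity could not be told from 0 with 3 replicates.

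Collagen genes also differed between replicate numbers, which the labels tie to library numbers 1 to 4, 5 to 8 and 11 to 14, so a library batch and the replicate cannot be told apart. Of 23 genes, 14 differed by replicate number at an adjusted p under 0.05, where 33.9% of all genes did. Col18a1, among the 14, reached 1 CPM only in the 4 replicate 3 libraries. It was tested only because of the replicate where it was high. Col1a1 had the smallest p of all 11638 genes and was 15.6-fold higher in replicate 3 than in replicate 2 (edgeR adjusted p = 1.06e-09). Col8a1 was 6.7-fold higher (rank 10), Col12a1 5.34-fold (rank 16) and Col5a1 1.88-fold (rank 41). Of the 14, 9 were lower in replicate 2 than in replicate 3 and 5 were higher, those being Col4a5, Col7a1, Col10a1, Col15a1 and Col16a1.

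**Figure D3:**
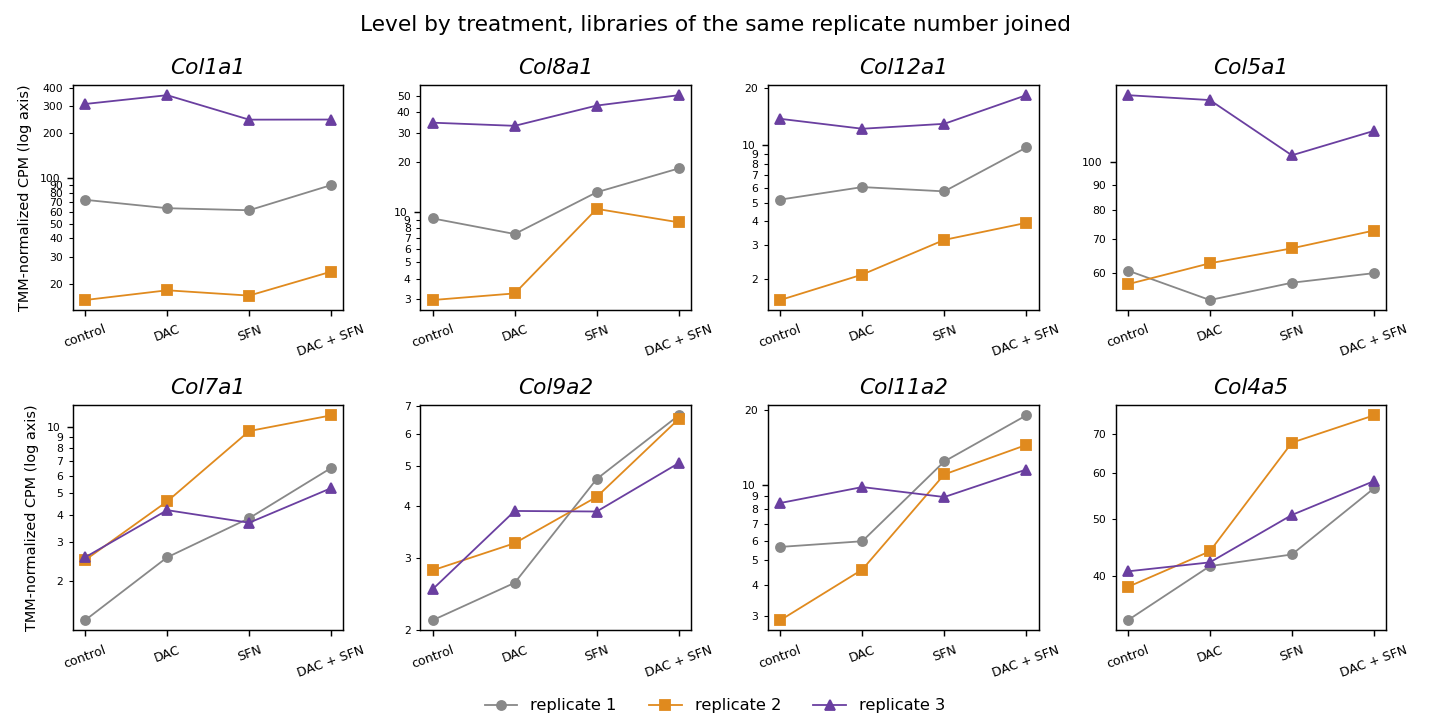
TMM-normalized CPM (log vertical axes) of 8 collagen genes is plotted by group, with libraries of the same replicate number joined. Col1a1, Col8a1 and Col12a1 keep the order of replicate 3, 1 and 2 in all 4 groups, while Col7a1, Col9a2, Col11a2 and Col4a5 have their highest value in DAC + SFN within each replicate number.

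The summed level of all collagen genes per length followed the same split, from 41.8 to 77.5 in replicates 1 and 2 and from 104 to 121 in replicate 3. Col1a1 alone made 3.76% of this sum in SFN replicate 2 and 45% in DAC replicate 3. Replicate 3 also tended to the smallest differences from control. Of the 17 genes raised by DAC + SFN, 14 (82.4%) had their smallest difference from control in replicate 3, where 64% of all genes raised in that comparison did. The median difference of the 17 genes was 0.89, 1.19 and 0.37 on the log2 scale in replicates 1, 2 and 3, against 0.49, 0.50 and 0.30 for all genes raised.

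Markers of other cell types were read beside the collagens. All 7 melanocyte markers were expressed, with a summed level of 21420 to 30150 CPM. With DAC + SFN, 2 of them fell, Pmel (log2 fold change -0.36, adjusted p = 0.0129) and Tyrp1 (log2 fold change -0.17, adjusted p = 0.0478). Of 7 fibroblast and mural markers, Pdgfra and Pdgfrb were tested, of which Pdgfra fell with SFN (log2 fold change -0.84, adjusted p = 0.024) and with DAC + SFN (log2 fold change -0.73, adjusted p = 0.0249). Of the others, Thy1, Dcn, Lum and Fap had under 10 counts, and the summed level of the list was 14.2 to 21.6 CPM in control and 13.8 to 18.8 CPM with DAC + SFN. Of 4 leukocyte markers only Cd68, a lysosomal protein, was tested and it rose with SFN and DAC + SFN (log2 fold change 1.55, adjusted p = 1.98e-05 with DAC + SFN), which moved the sum of that list from 2.36 to 4.78 CPM in control to 8.31 to 11.2 CPM, while Ptprc, Cd3e and Itgam had at most 3 counts. The sums of the endothelial and keratinocyte lists reached at most 0.766 and 1.59 CPM, with Cdh5 at 0 in every library. The part of these marker changes in the collagen results was not tested.

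Collagen chains are hydroxylated, folded by chaperones, trimmed by propeptidases and cross-linked outside the cell. Of 52 genes listed for these steps, for collagen receptors and for fibril-binding proteoglycans, 35 were tested, and 0 changed with DAC (6 at an unadjusted p under 0.05), 8 rose and 3 fell with SFN, where 8.27% of all genes rose and 5.65% fell, and 16 rose and 3 fell with DAC + SFN, where 17% of all genes rose and 14.7% fell. Of 8 listed genes of propeptide cleavage 5 were tested, and these were called higher with DAC + SFN, among them Tll1, which passed the filter only because of its DAC + SFN libraries. Adamts14, a procollagen N-propeptidase, rose 3.02-fold (log2 fold change 1.60, SE 0.164, adjusted p = 1.03e-05) with DAC + SFN and 2.66-fold (log2 fold change 1.41, SE 0.164, adjusted p = 6.91e-05) with SFN. Bmp1, the main C-propeptidase, rose 1.95-fold (log2 fold change 0.96, SE 0.128, adjusted p = 8.34e-05) with DAC + SFN and 1.84-fold (log2 fold change 0.88, SE 0.128, adjusted p = 0.000404) with SFN. Pcolce2, an enhancer of this cleavage, rose with the combination (log2 fold change 0.78, adjusted p = 0.0399). Tll1, a relative of Bmp1, had a log2 fold change of 1.22 (adjusted p = 0.0235), and outside the DAC + SFN group it reached 1 CPM only in control replicate 2 and SFN replicate 2.

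Sparc, a collagen-binding protein of folding and secretion, averaged 1292 CPM in control and rose 1.75-fold (log2 fold change 0.81, SE 0.0892, adjusted p = 4.88e-05) with SFN and 2.04-fold (log2 fold change 1.03, SE 0.0896, adjusted p = 2.95e-06) with DAC + SFN. Of 3 tested cross-linking genes, Loxl4 rose (log2 fold change 1.24, adjusted p = 0.00297) and Loxl2 fell (log2 fold change -1.07, adjusted p = 0.0376) more than 1.5-fold with DAC + SFN, and the Loxl2 differences were -2.34, 0.88 and -1.41 in replicates 1, 2 and 3. Of 11 tested hydroxylase and glycosyltransferase genes 3 rose with DAC + SFN, and of 11 folding and export genes 2 rose and 2 fell. Of 5 receptors 4 rose (Itga1, Itga10, Itgb1 and Ddr1), none of these 4 by more than 1.5-fold. Of the 4 proteoglycans Dcn, Bgn, Lum and Fmod, 0 were tested, and the highest count in a library was 14.

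**Figure D4:**
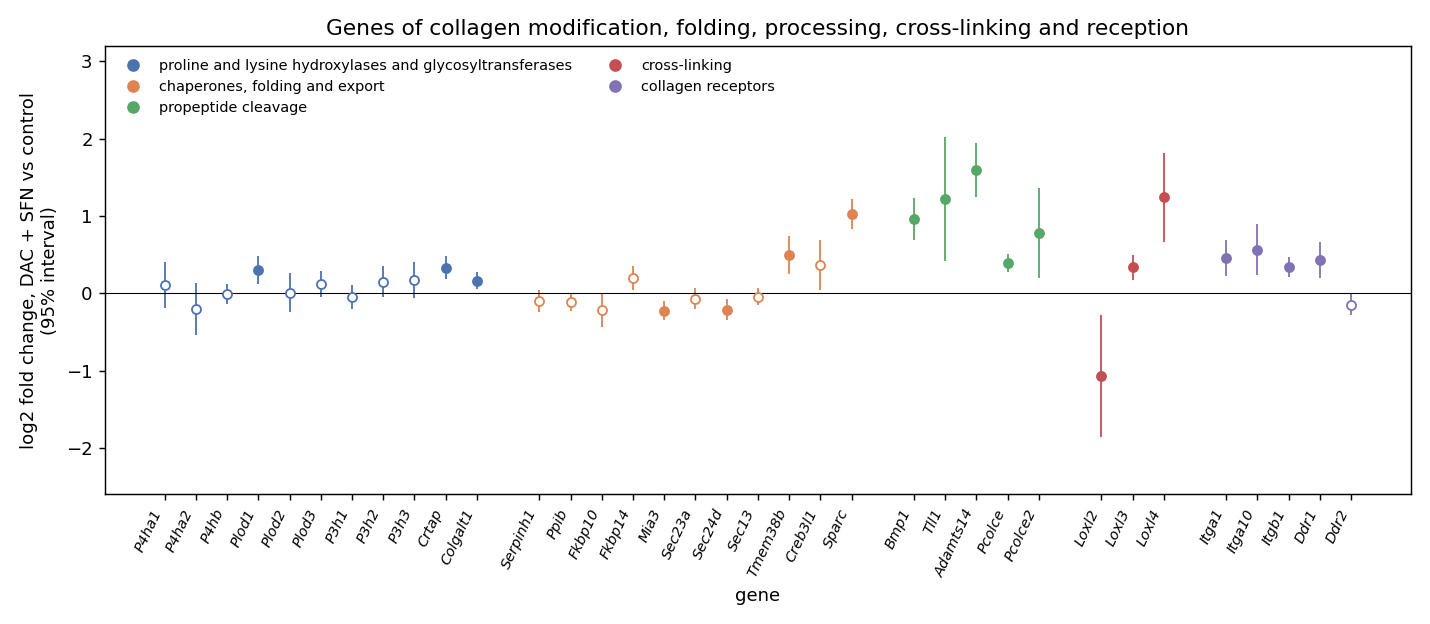
Log2 fold changes with 95% intervals, DAC + SFN against control, are plotted for the 35 tested genes of collagen modification, folding, processing, cross-linking and reception, coloured by list and filled where the adjusted p was under 0.05. The 5 propeptide cleavage genes that passed the filter are filled and above 0, while most hydroxylase and folding genes lie near 0.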

How the data were processed

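Per the labels and the study's methods, the authors trimmed reads with Trimmomatic 0.38 after FastQC 0.11.7, aligned them to mm10 with TopHat2 2.1.1 and counted uniquely aligned reads per gene with HTSeq (tool versions from the submitters' processing notes), and they deposited raw counts per gene symbol for each of the 12 libraries. The annotation and strand setting of the counting are not given in the sources used here. Genes were followed by symbol, since 397 Entrez identifiers stand beside more than 1 symbol, among them those of Col1a1 with Col1a2 and of Col5a3 with Col11a1. Library totals were 15880957 to 27291436 counts, so a gene near 1 CPM has few counts and a wide error.

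The 11638 genes that reached 1 CPM in 3 or more libraries were normalized by TMM and tested with glmQLFTest in edgeR 4.0.16 (R 4.3.3, legacy quasi-likelihood fit, limma 3.58.1) on all 12 libraries, and replicate number was the blocking factor because the batch corrected for in the study's methods is not named there. P-values were adjusted by Benjamini-Hochberg over all tested genes and the tests were two-sided. The log2 differences between replicates used a prior count of 2. Standard errors (SE) were derived from each log2 fold change and its F statistic. The study's methods describe the replicates as independent repeats, and the numbers paired the libraries: deviations from group means correlated by 0.27 to 0.732 (mean 0.544) over all 18 same-number pairs.

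Levels per length used the union of exons in GENCODE M21. Values per library are given for collagen genes called in any comparison, for the 5 highest in control and for those with a library over 3 times the others of its group, and assembly genes are named where called with a change above 1.5-fold. The members and lists were chosen with earlier results of these data known. Alternatives were RLE scaling, DESeq2 1.42.0, no filter, at least 10 counts in every sample, a robust fit, no block, only the groups compared, and leaving out libraries or replicates. The fits were also tried on simulated data, for which no outcome is given here. Protein sequences were not used here. Plots were made in Python 3.11.15 using matplotlib 3.10.9.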

Additional observations from a re-analysis of the deposited data

How the results depend on the processing

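With no replicate block, the collagen genes called numbered 0 for SFN against control, 10 for DAC + SFN against control, 0 for DAC + SFN against DAC, 0 for DAC + SFN against SFN, 0 for the main effect of DAC and 12 for that of SFN, where the paired fit had 9, 17, 14, 1, 2 and 18. With a fold change above 2 added, the numbers were 1, 7, 2 and 0 in the first 4 of these. With no filter, 1 gene was called for DAC against control, 2 for DAC + SFN against SFN and 7 for the main effect of DAC. In fits of only the groups compared, 1 gene was called for DAC against control and 8 for DAC + SFN against SFN. DESeq2 called 0 for DAC + SFN against SFN and 4 for the main effect of DAC. These numbers, and those for libraries left out below, stand without the share of all genes called in the same fit. How far they follow the calls over all genes was not tested.

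When single libraries or all libraries of a replicate number were left out, the numbers ran from 0 to 0 for DAC against control, 0 to 10 for SFN, 7 to 18 for DAC + SFN, 1 to 16 for DAC + SFN against DAC, 0 to 2 against SFN, 0 to 8 for the main effect of DAC, 10 to 18 for that of SFN and 0 to 0 for the interaction. Fits without a replicate number rest on 8 libraries. Col4a2, Col4a5, Col5a3, Col7a1, Col9a2 and Col10a1 kept their call for DAC + SFN against control at an adjusted p under 0.05 in every other fit tried, but Col4a2, Col4a5 and Col5a3 did not rise above 2-fold. No collagen gene called in a comparison changed direction in any alternative. RLE scaling and DESeq2's size factors moved the median of all genes by less than 0.1 on the log2 scale. The genes lowest per length, Col14a1, Col18a1 and Col2a1, had SEs of 0.34 to 0.51 for DAC + SFN against control.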
